A study of Mus musculus with 10 samples.

Results

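The genes described here mark leukocytes and the macrophages of the fetal lung. They were 43 symbols chosen as a list, and a gene was measured when a probe set of the array was annotated to that symbol alone. By this rule 40 of the 43 had a value, out of 17919 genes in all, each from 1 probe set. Cd74 shared its probe set with another gene name, and no probe set carried Cd247 or Il7r alone, so these 3 have no value here. The measured genes are 5 pan-leukocyte genes, 8 genes shared by myeloid cells, 14 macrophage genes, 1 gene of antigen presentation, 9 neutrophil genes and 3 lymphocyte genes.

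The samples were 10 whole lungs, each on its own Affymetrix gene array, from mouse fetuses at E18.5, shortly before birth. The 5 knockout lungs carried Shhcre and Hdac3 fl/fl, and the 5 control lungs are labelled as Shhcre controls with no Hdac3 alleles given, all on a mixed C57BL/6 and 129X1,129S6 background. The dams were Hdac3 fl/fl and the sires Hdac3 fl/+ with Shhcre, so by the cross a Shhcre embryo is Hdac3 fl/fl or fl/+. Shh-Cre is a recombinase expressed in the lung epithelium, and leukocytes were measured here as a minority of the whole tissue.

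Fetal lung macrophages derive from yolk sac and fetal liver precursors, depend on the receptor Csf1r and the transcription factor PU.1, encoded by Spi1, and become alveolar macrophages around birth under the cytokine encoded by Csf2. Neutrophils load their granules in a fixed order, with Mpo, Elane and Prtn3 in primary granules and Ltf, Camp and Ngp in secondary granules, while S100a8 and S100a9 fill the cytosol. Lymphocytes are few in the lung before birth.

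All values are log2 levels, so a difference of 1 is a doubling. Groups were compared with limma, which tests each gene with a variance moderated across genes, and a gene was called at a Benjamini-Hochberg adjusted p under 0.05 over all 17919 genes. Hdac3 itself fell by 0.31 ± 0.07 (SE, adjusted p = 0.0203), a call that ended without control 2 (adjusted p = 0.0526) or control 5 (0.0545). The lung epithelial genes Sftpc and Nkx2-1 had control means of 13.46 and 11.01. Xist was at 11.21 in control 1 and 11.47 in knockout 1 and at 5.13 or less in the other lungs. The Y-linked Uty was at 4.53 or less in control 1, knockout 1 and knockout 5 and at 9.78 or more elsewhere, so sex-linked RNA was not balanced between the groups. In a bulk sample, fewer cells of a type and less RNA per cell cannot be told apart.

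Of the 40 measured genes, 2 fell and 0 rose in the knockout lungs. They are Cybb, the catalytic subunit of the phagocyte NADPH oxidase, and Ctss, the lysosomal protease cathepsin S. They make up 5% of the members, against 3.12% of all genes called in either direction, 1.58% lower and 1.54% higher, so the share of called members is near the background. At an unadjusted p under 0.05 limma gave 8 lower and 2 higher members, together 25% of the members against 13.5% of all genes. The median change of the members was -0.04, against 0.00 for all genes, and 28 changes (70%) lay below 0, against 48% of all genes.

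**Figure D1:**
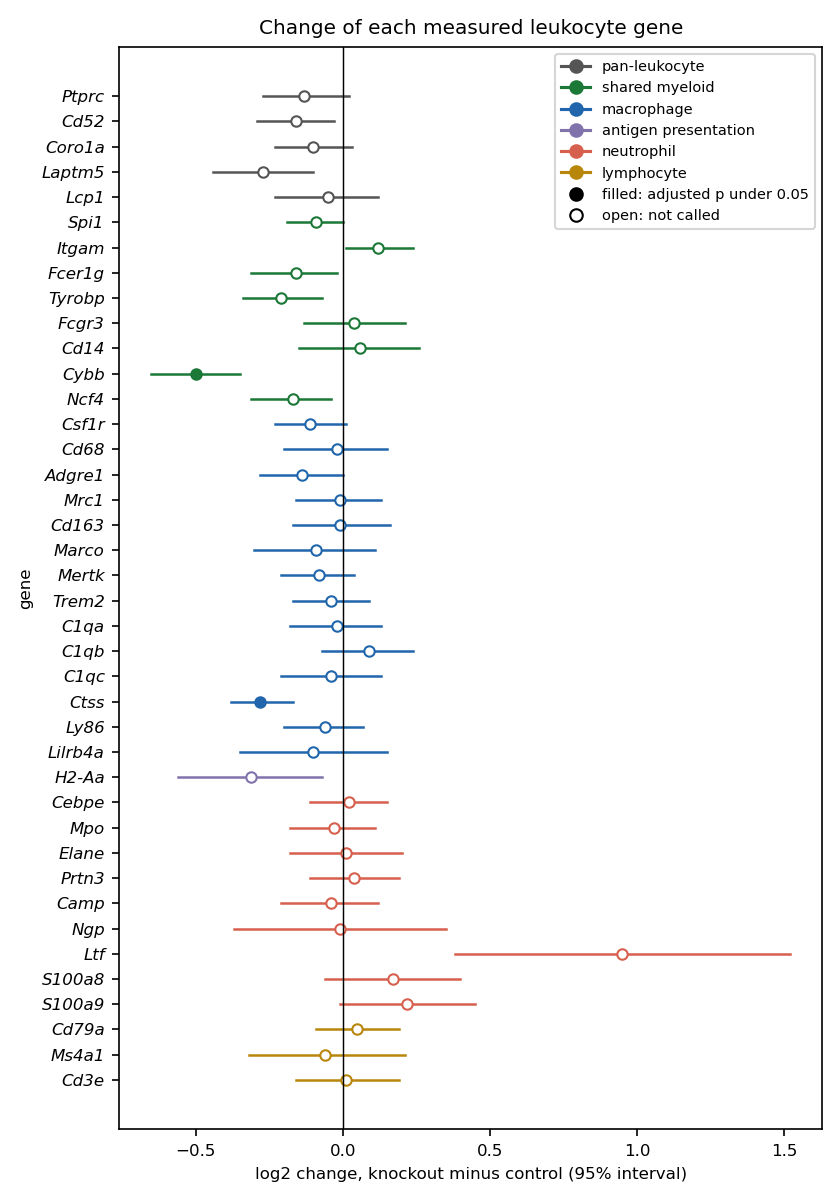
Log2 change of each of the 40 measured genes, knockout minus control, with its 95% interval from limma on the horizontal axis and genes grouped by class on the vertical axis; filled points passed the adjusted threshold. Cybb and Ctss are the filled points, and Ltf lies furthest to the right at 0.95 with a wide interval.

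Few members separated the groups completely. For 4 members (10%), Cybb, Ctss, Tyrobp and H2-Aa, the highest knockout lung lay under the lowest control, against 2.66% of all genes. For 1 member, Ltf, the lowest knockout lung lay over the highest control, against 2.44% of all genes. The lungs of each group are numbered 1 to 5, and 9 members (22.5%) were lower in the knockout in 5 of 5 same-numbered pairs, against 9.05% of all genes. In the opposite direction there were 2, Itgam and Ltf, against 8.7% of all genes. The labels do not say what lungs of the same number share, and the pairing was read from these same data. Every call given here with the block rests on that pairing. With the number as a block, limma called 3 members lower and 1 higher, adding Laptm5 and Ltf. That fit called 4.72% of all genes, 2.44% lower and 2.28% higher.

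**Figure D2:**
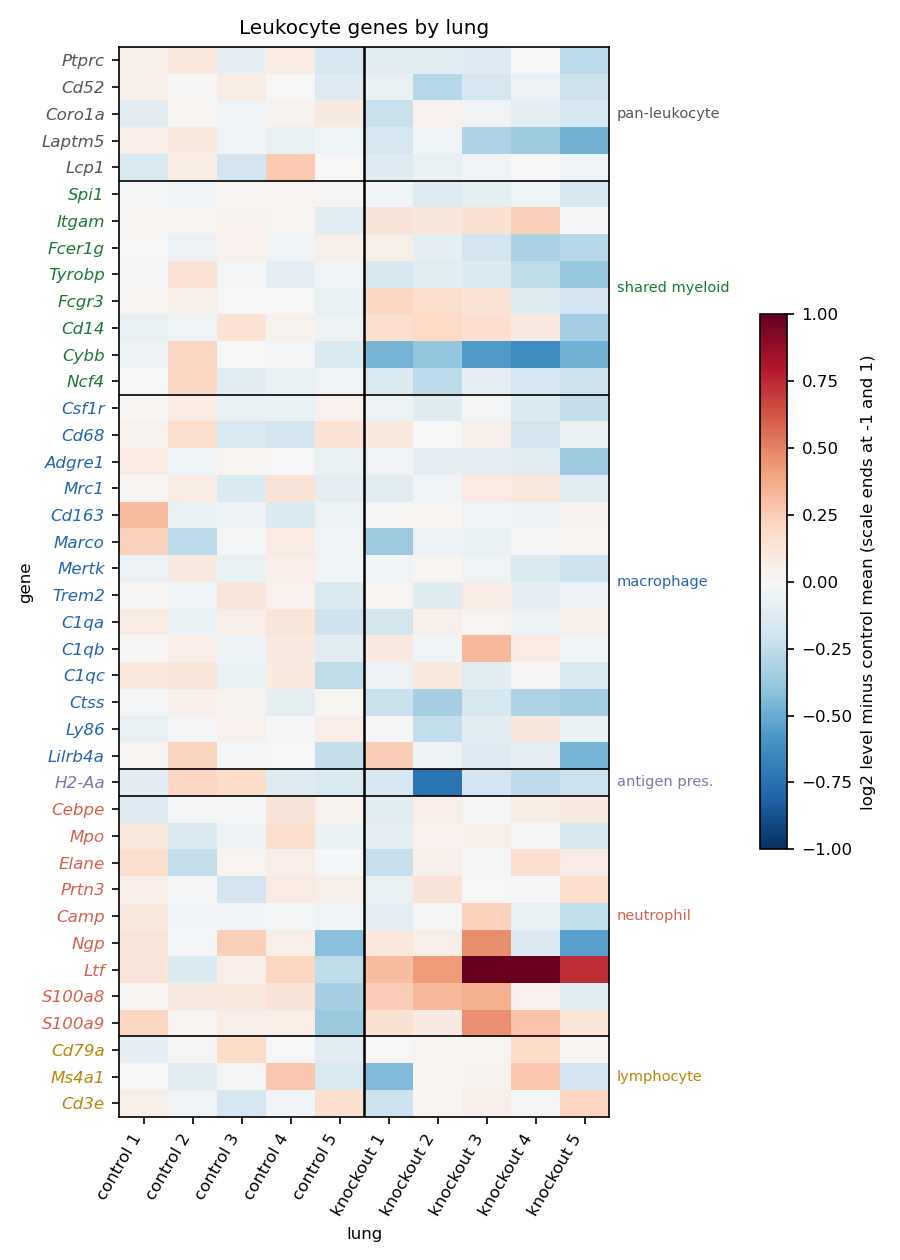
Each row is a measured gene and each column a lung; colour is the log2 level minus the gene's control mean, red higher and blue lower, with the scale ending at -1 and 1. The Cybb row is blue in all 5 knockout lungs and the Ltf row red in all 5, and most other rows are pale in both groups.

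Sequence just upstream of the start site is shown for the genes called lower and for Laptm5 and Ltf, which were called with the block. The purine-rich PU box GAGGAA, a short element that PU.1 is known to bind, was searched on both strands. The search covered the 250 bases before each start site, and exact matches are in capitals. Other sequences that PU.1 may bind were not searched. A match on the opposite strand reads TTCCTC. Sequences are from RefSeq on GRCm38.p6, 5′ to 3′ along the gene.
Cybb, chrX:9469325-9469574, minus strand: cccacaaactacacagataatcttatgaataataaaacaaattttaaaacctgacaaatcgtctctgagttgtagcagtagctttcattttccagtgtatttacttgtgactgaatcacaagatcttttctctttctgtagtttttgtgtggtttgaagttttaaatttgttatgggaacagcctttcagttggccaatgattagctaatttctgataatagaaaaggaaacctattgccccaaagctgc
Ctss, chr3:95526536-95526785, plus strand: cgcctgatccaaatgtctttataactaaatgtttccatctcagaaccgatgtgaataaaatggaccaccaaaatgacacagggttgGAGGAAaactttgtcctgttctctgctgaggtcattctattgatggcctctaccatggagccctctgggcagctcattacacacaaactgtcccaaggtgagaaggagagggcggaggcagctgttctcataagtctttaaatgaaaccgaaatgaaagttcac
Laptm5, chr4:130913066-130913315, plus strand: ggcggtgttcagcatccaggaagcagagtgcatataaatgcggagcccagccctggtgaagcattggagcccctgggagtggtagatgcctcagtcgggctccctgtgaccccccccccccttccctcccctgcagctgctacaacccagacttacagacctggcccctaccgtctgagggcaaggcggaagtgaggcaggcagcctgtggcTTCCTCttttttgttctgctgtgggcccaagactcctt
Ltf, chr9:111019042-111019291, plus strand: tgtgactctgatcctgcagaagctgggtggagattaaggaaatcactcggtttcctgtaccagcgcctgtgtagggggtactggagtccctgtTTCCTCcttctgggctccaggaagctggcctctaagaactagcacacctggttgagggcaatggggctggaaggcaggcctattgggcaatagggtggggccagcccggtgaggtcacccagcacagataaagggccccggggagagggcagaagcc
The Cybb window held no exact GAGGAA, which does not show that PU.1 has no site there. The other 3 windows held 1 PU box each. In Ctss it lay 164 to 159 bases upstream of the start on the gene's own strand. In Laptm5 it lay 38 to 33 bases upstream, and in Ltf 157 to 152 bases upstream, both on the opposite strand. The RefSeq table had a window for 29 of the 40 measured members, some with several start sites. A PU box stood in 19 of their 33 windows (57.6%), against 23.3% of all 32851 windows of this length. By gene it stood in 18 of the 29 members, against 6986 of all 27025 genes. Macrophage genes held it in 7 of 10 windows, among them C1qb, C1qc, Cd68, Marco, Mrc1 and Trem2, and neutrophil genes in 5 of 8. Shared myeloid genes held it in 3 of 5 windows, but 2 of these are overlapping Fcgr3 windows with the same match, so by gene it is 2 of 4. Lymphocyte genes held it in 2 of 2 windows and H2-Aa in 0 of 1. Pan-leukocyte genes held it in 2 of 7 windows (28.6%), but some of these windows belong to the same gene, and by gene it is 2 of 4. Genes with a match include many that were not called, such as Mrc1, with 3 matches and a log2 change of -0.01.

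The pan-leukocyte genes had changes below 0 in 5 of 5 cases, with a median of -0.13. None was called by limma without the block, and 2 (40%, against 13.5% of all genes) had an unadjusted p under 0.05. Laptm5, a lysosomal membrane protein of blood cells, was at 6.77, 6.80, 6.66, 6.62 and 6.66 in controls 1 to 5 and at 6.53, 6.66, 6.39, 6.34 and 6.23 in knockouts 1 to 5. Knockout 2 overlapped the controls, and the other 4 knockout lungs lay below them. Its log2 change was -0.27 ± 0.08 (SE, adjusted p = 0.089), and with the replicate block it was called (adjusted p = 0.0227). Of the fits that left out 1 lung, only the one without knockout 2, the overlapping lung, called it (adjusted p = 0.0292). The others gave adjusted p up to 0.191, and it was called in 3 of 23 alternatives.

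Ptprc, the phosphatase CD45 found on all nucleated blood cells, was at 7.93, 7.98, 7.79, 7.95 and 7.70 in the controls and 7.75, 7.76, 7.74, 7.87 and 7.60 in the knockouts. The groups overlapped, although each knockout lung lay below the control of its number, and the log2 change was -0.13 (95% interval -0.27 to 0.02, adjusted p = 0.465). Cd52, a small surface glycoprotein, stood at -0.16 ± 0.06 (SE, adjusted p = 0.219). Coro1a, an actin-binding protein of leukocytes, stood at -0.10 and Lcp1, the actin bundler L-plastin, at -0.05 (adjusted p = 0.55 and 0.85).

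Cybb had the lowest adjusted p of the members (0.0013 by limma). Its level was 9.48, 9.74, 9.53, 9.51 and 9.39 in controls 1 to 5 and 9.06, 9.14, 8.97, 8.91 and 9.05 in knockouts 1 to 5. The highest knockout lung, at 9.14, lay below the lowest control, at 9.39. The group mean moved from 9.53 ± 0.13 to 9.03 ± 0.09 (SD over 5 lungs each), a log2 change of -0.50 ± 0.07 (SE), or 70.6% of the control level. An exact two-sided permutation test over the lungs gave p = 0.00794, the smallest this design allows. Same-numbered pairs differed by -0.60 to -0.34. Cybb is X-linked, and the lungs with Xist, control 1 and knockout 1, lay inside the range of their groups.

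Other parts of the same oxidase had smaller changes. Ncf4, the cytosolic subunit p40phox, was at 7.11, 7.31, 7.01, 7.05 and 7.08 in the controls and 6.97, 6.85, 7.02, 6.94 and 6.91 in the knockouts. Knockout 3 overlapped the controls, and the log2 change of -0.17 ± 0.06 (SE) was not called (adjusted p = 0.206). Of the partners outside the list, Ncf1, the subunit p47phox, was at 9.03, 8.99, 8.81, 8.74 and 9.01 in the controls and 8.44, 8.72, 8.64, 8.57 and 8.66 in the knockouts. All its knockout values lay below the controls, and it fell by 0.31 ± 0.07 (SE, adjusted p = 0.0393). The Ncf1 call was lost in 7 of the 10 fits that left out 1 lung: each of controls 1, 2, 3 and 5 and of knockouts 1, 3 and 4, with adjusted p up to 0.105 without control 1. It was also lost when low values were set to a floor of 6.30 (adjusted p = 0.0797). Rac2, the GTPase of the complex, stood at -0.20 (adjusted p = 0.0852) and Cyba, the membrane partner of Cybb, at 0.02 (adjusted p = 0.935). Both were named after their values were seen.

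Of the Fc receptor chains and their adaptors none passed the threshold without the block. Tyrobp, the adaptor DAP12 of myeloid receptors such as Trem2, was at 9.47, 9.61, 9.47, 9.39 and 9.45 in the controls and 9.32, 9.37, 9.34, 9.22 and 9.10 in the knockouts. The groups did not overlap, and the log2 change was -0.21 ± 0.06 (SE, adjusted p = 0.114, and 0.0533 with the replicate block). Fcer1g, the shared gamma chain of Fc receptors, stood at -0.16 ± 0.07 (SE, adjusted p = 0.302). In knockout 1 it was level with the highest control at 8.84, and in the other 4 knockout lungs, from 8.47 to 8.69, below all controls. Fcgr3, an activating Fc gamma receptor with similar family members that may share its probes, stood at 0.04 (adjusted p = 0.907), with knockouts 1 to 3 above and knockouts 4 and 5 below all controls. Fcgr1, the high-affinity Fc gamma receptor and a partner outside the list, stood at -0.23 ± 0.08 (SE, adjusted p = 0.185) and was called with the block (adjusted p = 0.0249).

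Both chains of the integrin Mac-1 were measured, with changes of opposite sign. Itgam, its alpha chain, was at 7.26, 7.27, 7.28, 7.27 and 7.14 in the controls and 7.37, 7.36, 7.39, 7.48 and 7.23 in the knockouts. Knockouts 1 to 4 lay above all controls, and the change of 0.12 ± 0.05 (SE) was not called (adjusted p = 0.338). Itgb2, the beta chain that it shares with other leukocyte integrins and a partner outside the list, was at 8.31, 8.38, 8.23, 8.34 and 8.29 in the controls and 8.15, 8.05, 8.06, 7.92 and 8.01 in the knockouts. The groups did not overlap, and it fell by 0.27 ± 0.05 (SE, adjusted p = 0.0124).

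Spi1 and Cd14 complete the shared myeloid genes, which had a median change of -0.13 and 5 of 8 below 0. Spi1 lay between 7.38 and 7.43 in the controls and between 7.23 and 7.38 in the knockouts, a log2 change of -0.09 ± 0.04 (SE, adjusted p = 0.387). Cd14, the co-receptor for lipopolysaccharide, had group means of 6.20 and 6.25, under 6.30, the 20th percentile of the whole table, where the array separates levels poorly. Its change was 0.06 (adjusted p = 0.884). Of the partners of the Toll receptor complex, Tlr4 and Cd180 stood at -0.12 and -0.10 (adjusted p = 0.624 and 0.561).

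Most genes that mark macrophages as cells were not called. Csf1r, the receptor that fetal macrophages need, was at 8.94, 9.0, 8.84, 8.85 and 8.96 in the controls and 8.87, 8.80, 8.91, 8.78 and 8.68 in the knockouts. The groups overlapped, and the log2 change was -0.11 (interval -0.23 to 0.01, adjusted p = 0.41). Adgre1, the F4/80 antigen, stood at -0.14 (interval -0.28 to 0.00, adjusted p = 0.379), with 4 knockout lungs below all controls. Cd68, a lysosomal glycoprotein, stood at -0.02 (interval -0.20 to 0.15), and Mrc1, the mannose receptor, at -0.01 (interval -0.16 to 0.13). For Cd68 and Mrc1 all 5 knockout lungs lay inside the control range. Over the 14 macrophage genes the median change was -0.05, with 13 below 0.

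Ctss was the macrophage gene that was called. Its level was 8.74, 8.81, 8.80, 8.67 and 8.78 in the controls and 8.54, 8.43, 8.59, 8.45 and 8.42 in the knockouts. No knockout lung reached a control, and same-numbered pairs differed by -0.38 to -0.20. Its group mean moved from 8.76 ± 0.06 to 8.49 ± 0.07 (SD over 5 lungs each), a log2 change of -0.28 ± 0.05 (SE), or 82.6% of the control (limma adjusted p = 0.0093). In the 7 lungs with Y-linked RNA and no Xist it stood at -0.28 and was not called (adjusted p = 0.0851). Cathepsin S trims the invariant chain, the product of Cd74, before peptides are loaded on MHC class II.

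H2-Aa, the alpha chain of that MHC molecule, was at 6.55, 6.87, 6.85, 6.54 and 6.52 in the controls and 6.50, 5.94, 6.47, 6.41 and 6.46 in the knockouts. The groups did not overlap, but the lowest control and the highest knockout lay close together, and knockout 2 lay furthest down. The log2 change was -0.31 ± 0.11 (SE, adjusted p = 0.215). Its partner chain H2-Ab1 stood at -0.27 ± 0.10 (SE, adjusted p = 0.192), and H2-DMa, which helps to load peptide, at 0.08 (adjusted p = 0.715).

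None of the 3 chains of complement C1q, made by tissue macrophages from neighbouring genes, was called. C1qb was at 8.47, 8.52, 8.39, 8.55 and 8.34 in the controls and 8.54, 8.43, 8.78, 8.53 and 8.42 in the knockouts, a log2 change of 0.09 (interval -0.07 to 0.24). Knockout 3 lay above all controls and the others among them. C1qa stood at -0.02 (interval -0.18 to 0.13) and C1qc at -0.04 (interval -0.21 to 0.13), with all 5 knockout lungs inside the control range for both. The adjusted p values were 0.949, 0.691 and 0.906 for C1qa, C1qb and C1qc.

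Genes for the uptake of dying cells and particles were also not called. Mertk, a receptor that engages dying cells through bridging ligands, stood at -0.08 (interval -0.21 to 0.04), and Trem2, a lipid receptor, at -0.04 (interval -0.17 to 0.09). The scavenger receptors Cd163 and Marco had both group means under 6.30 and changes of -0.01 and -0.09. Ly86, the MD-1 partner of Cd180, stood at -0.06 (adjusted p = 0.752). Lilrb4a, an inhibitory receptor with a near-identical neighbour, stood at -0.10 (adjusted p = 0.8), with its lowest values in control 5, at 9.99, and knockout 5, at 9.76.

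Other monocyte and macrophage genes, listed outside the members, gave 1 fall and 0 rises among 29 measured of 31. That is 3.45% called, near the 3.12% of all genes, and the median change was -0.05. At an unadjusted p under 0.05, limma had 7 lower and 1 higher, 27.6% of them against 13.5% of all genes. Siglec1, the sialoadhesin of tissue macrophages, was at 6.88, 6.95, 6.93, 6.83 and 7.24 in the controls and 6.27, 6.63, 6.65, 6.40 and 6.64 in the knockouts. The groups did not overlap, and it fell by 0.45 ± 0.09 (SE, adjusted p = 0.0218). Leaving out knockout 4 ended that call (adjusted p = 0.0549), as did setting values under 6.30 to that floor (0.0624). With the block 4 of these genes were called lower, where 2.44% of all genes were. Besides Siglec1 they were the C-type lectin Clec4n (-0.45, blocked adjusted p = 0.0114), the monocyte chemokine receptor Ccr2 (-0.33, 0.0282) and Csf2rb, a signalling chain of the Csf2 receptor (-0.22, 0.0455).

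**Figure D3:**
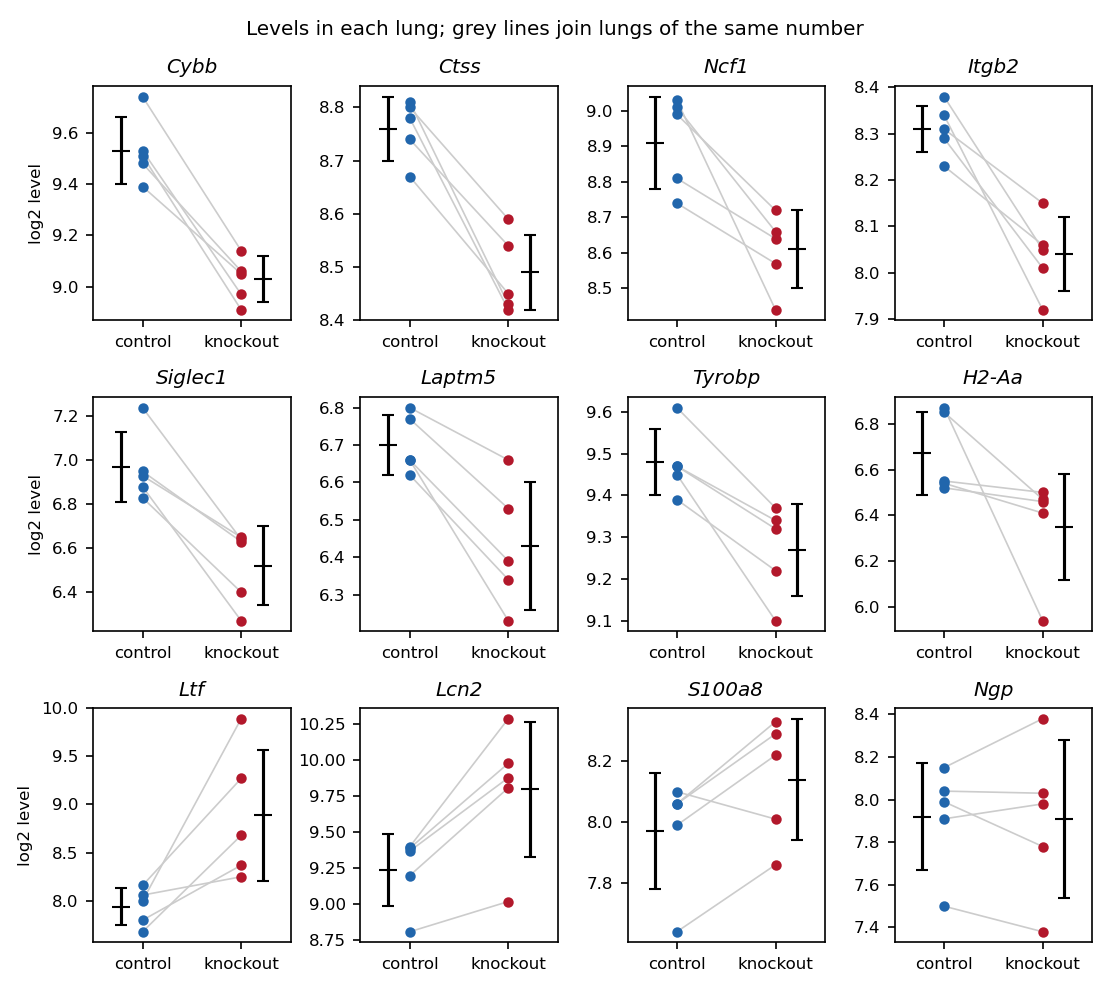
Log2 level in each lung for 12 genes, with control lungs in blue and knockout lungs in red; grey lines join lungs of the same number and black bars are the mean and SD of 5 lungs, on an axis fitted to each gene. Knockout lungs lie below all controls for Cybb, Ctss, Ncf1, Itgb2, Siglec1, Tyrobp and H2-Aa, above them for Ltf, and overlap them for Laptm5, Lcn2, S100a8 and Ngp.

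Neutrophil genes had a median change of 0.02, with 3 of 9 below 0. Ltf, lactoferrin, an iron-binding protein of secondary granules that secretory epithelium also makes, was at 8.06, 7.80, 8.0, 8.16 and 7.68 in the controls and 8.25, 8.37, 9.89, 9.27 and 8.68 in the knockouts. Each knockout lung lay above each control, and knockouts 3 and 4 stood far above knockouts 1 and 2. Its group mean moved from 7.94 ± 0.19 to 8.89 ± 0.68 (SD over 5 lungs each), a log2 change of 0.95 ± 0.26 (SE), 1.93 times the control. Limma gave adjusted p = 0.0823, and 0.0361 with the replicate block. It was called in 2 of 24 alternatives, that block and the fit without knockout 1 (adjusted p = 0.0453), and in none of the other 9 fits that left out 1 lung (adjusted p up to 0.179).

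Among the members, the other secondary granule genes named above, Ngp and Camp, had changes near 0. Neutrophil genes outside the list are given separately below. Ngp was at 8.04, 7.91, 8.15, 7.99 and 7.50 in the controls and 8.03, 7.98, 8.38, 7.78 and 7.38 in the knockouts. Its log2 change was -0.01 (interval -0.37 to 0.35), and control 5 and knockout 5 were the lowest lungs of their groups. Camp, the cathelicidin, had both means under 6.30 and a change of -0.04 (interval -0.21 to 0.12). Cebpe, the factor that drives secondary granule genes, stood at 0.02 (interval -0.11 to 0.15).

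The primary granule genes Mpo, Elane and Prtn3 stood at -0.03, 0.01 and 0.04, with adjusted p of 0.903, 0.983 and 0.884. S100a8, at 7.99, 8.06, 8.06, 8.10 and 7.64 in the controls and 8.22, 8.29, 8.33, 8.01 and 7.86 in the knockouts, had a change of 0.17 ± 0.11 (SE, adjusted p = 0.555). S100a9, its partner in calprotectin, had 0.22 ± 0.10 (SE, adjusted p = 0.387). Both were higher in the knockout in 4 of 5 pairs, and their groups overlapped.

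Of 18 further neutrophil and precursor genes 16 were measured, with a median change of 0.21. Limma called 0 of them, against 3.12% of all genes. At an unadjusted p under 0.05 there were 4 higher and 0 lower, 25% of the list against 13.5% of all genes. With the block 3 were called higher, where 2.28% of all genes were. Lcn2, the iron-siderophore trap lipocalin 2, which epithelium also makes, was at 9.39, 9.37, 9.40, 9.20 and 8.81 in the controls and 9.98, 9.88, 10.29, 9.81 and 9.02 in the knockouts. Knockout 5 overlapped the controls, and the change was 0.56 ± 0.20 (SE, adjusted p = 0.203, and 0.00887 with the block). Csf3r, the granulocyte growth factor receptor, stood at 0.34 ± 0.12 (SE, adjusted p = 0.188, and 0.0163 with the block). Olfm4, of neutrophils and gut epithelium, stood at 0.30 ± 0.16 (SE, adjusted p = 0.456, and 0.0229 with the block).

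Among 7 epithelial markers, Krt8, a simple keratin, rose by 0.74 ± 0.06 (SE, adjusted p = 1.75e-05) and limma called no other. At an unadjusted p under 0.05 there were 2 higher, 28.6% of the list against 13.5% of all genes. The median change of the list was 0.04. The mean deviation of the other 6 markers from their control means lay from -0.02 to 0.03 in the controls and from 0.02 to 0.05 in the knockouts, and with Krt8 from -0.04 to 0.02 and from 0.13 to 0.15. The part of epithelial RNA in the values of Ltf, Lcn2 and Olfm4 was not tested.

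The 3 measured lymphocyte genes had both means under 6.30. Cd79a, of the B cell receptor, lay between 6.01 and 6.32 in the controls and between 6.12 and 6.32 in the knockouts. Ms4a1, the B cell antigen CD20, lay between 5.33 and 5.75 against 5.03 and 5.76. Cd3e, of the T cell receptor, lay between 5.32 and 5.66 against 5.28 and 5.70. These ranges overlap, and the changes of 0.05, -0.06 and 0.01 were not called (adjusted p = 0.814, 0.91 and 0.971).

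Among 14 further lymphocyte genes measured of 25, 1 rose and 0 fell, 7.14% called against 3.12% of all genes. Vpreb3, of B cell precursors, rose by 0.50 ± 0.08 (SE, adjusted p = 0.00346) between group means of 5.61 and 6.11, and its change was 0.00 once values under 6.30 were set to it. Cd79b, the partner of Cd79a, stood at -0.24 ± 0.06 (SE, adjusted p = 0.0562, and 0.0267 with the block). The 10 measured genes of mast cells, basophils and eosinophils gave 0 calls by limma and 0 at an unadjusted p under 0.05. Among them Hdc, the histamine-forming enzyme, stood at 0.57 ± 0.27 (SE, adjusted p = 0.39) and Cpa3, a mast cell protease, at -0.24 (adjusted p = 0.495).

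The mean deviation of each class from its control mean shows where single lungs stood. For the pan-leukocyte genes it lay from -0.05 to 0.06 in the controls and from -0.23 to -0.09 in the knockouts, with no overlap. In knockout 4 this separation rests on Laptm5, with a deviation of -0.364. Ptprc, Cd52, Coro1a and Lcp1 deviated there by 0.002, -0.055, -0.101 and 0.005. For the shared myeloid genes it lay from -0.05 to 0.06 and from -0.26 to -0.03. Cybb had the lowest deviation of these genes in each knockout lung, from -0.62 to -0.386. Itgam, Fcgr3 and Cd14 lay above 0 in knockouts 1 to 3, and the range without Cybb was not computed. For the macrophage genes it lay from -0.07 to 0.06 and from -0.14 to -0.02. In both classes the groups overlapped. For the neutrophil genes it lay from -0.15 to 0.10 and from 0.02 to 0.38, also with overlap. Ltf sets much of this range: the other 8 neutrophil genes lay from -0.14 to 0.08 in the controls and from -0.07 to 0.19 in the knockouts.

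**Figure D4:**
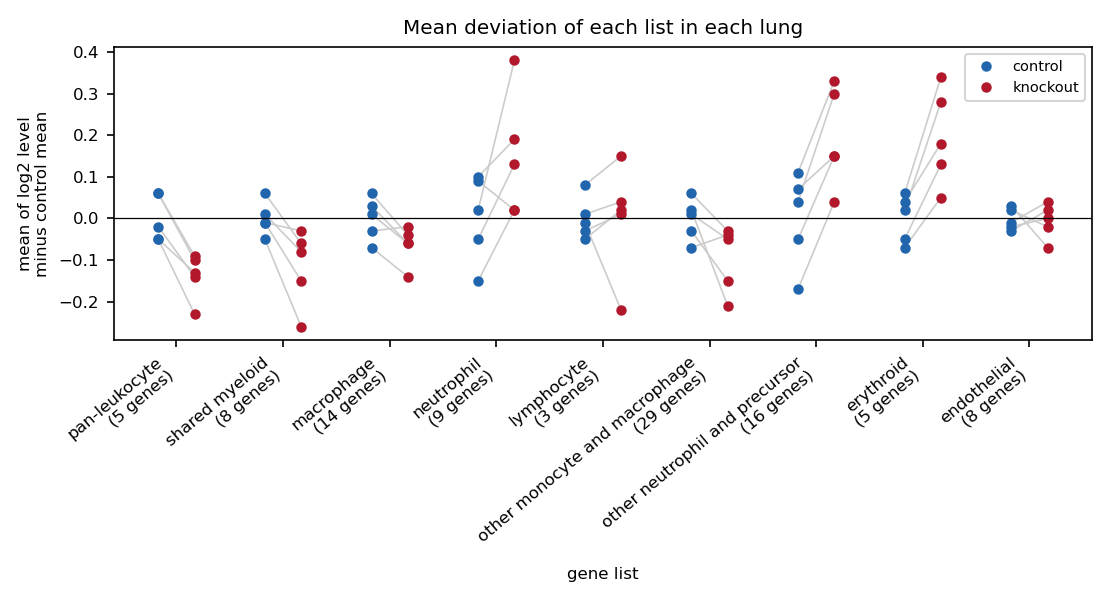
Mean over the genes of each list of the log2 level minus the gene's control mean, for each control (blue) and knockout (red) lung, with grey lines between lungs of the same number. Knockout lungs lie lower for the pan-leukocyte genes, a separation that rests on Laptm5 in knockout 4. They lie higher in 5 of 5 pairs for the further neutrophil genes and the erythroid genes, the latter including Tfrc. Endothelial genes lie within 0.07 of 0.

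Among the members, the lungs numbered 5 were often the lowest of their group. Control 5 was the lowest control for 18 of the 40 members and the highest for 4. Knockout 5 was the lowest knockout for 18 and the highest for 6. The share over all genes was not counted. Over the 29 other monocyte and macrophage genes the mean deviation was 0.02 in control 5 and -0.21 in knockout 5. Knockout 5 was lowest for 5 of the 8 shared myeloid genes and 7 of the 14 macrophage genes. Knockout 3 was the highest knockout for 6 of the 9 neutrophil genes and the lowest for 0 of all members. Cybb and Ctss were called without control 5 and without knockout 5.

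Genes for signals that sustain leukocytes gave 0 calls by limma among 11 measured of 12. There was 1 at an unadjusted p under 0.05, 9.09% against 13.5% of all genes. Csf1 and Il34, the ligands of Csf1r, stood at -0.01 and -0.09, and Csf2 at 0.00 with both means under 6.30; these 3 were named after their values were seen. Il33, an epithelial and stromal alarmin, stood at 0.42 ± 0.18 (SE, adjusted p = 0.326), and Tslp at -0.15 (adjusted p = 0.416). Of 17 measured partner genes of the members 2 fell, Ncf1 and Itgb2, and 0 rose, with a median change of -0.10. These calls are 11.8% of the partners, against 3.12% of all genes.

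Markers of other cell types in the lung were read in the same way. Of 8 endothelial, 7 mesenchymal and 5 platelet genes limma called 0, against 3.12% of all genes. At an unadjusted p under 0.05 the count was also 0, against 13.5% of all genes. The endothelial genes Cdh5 and Egfl7 stood at -0.09 and 0.10, the mesenchymal genes Col3a1 and Tcf21 at -0.09 and -0.16, and the platelet genes Treml1 and Itga2b at -0.10 and -0.06. Of 5 erythroid genes limma called 1 (20%, against 3.12% of all genes). It was Tfrc, the transferrin receptor that many cells use, which rose by 0.70 ± 0.08 (SE, adjusted p = 0.000434). Slc4a1, the red cell anion exchanger, stood at 0.22 ± 0.12 (SE, adjusted p = 0.464, and 0.0461 with the block). The part of these cell types in the members' values was not tested.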

How the data were processed

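The authors deposited log2 probe set levels for 10 lungs, made with oligo, RMA and limma per the submitters' processing notes, with no versions. How the 24888 probe sets were selected is not stated there. Per the labels, 100 ng of total RNA was amplified from a poly(T) primer. Probe sets were named from the platform annotation: 18922 had 1 symbol, 1343 several and 4623 none. The probe set with the highest mean stood for each gene, and 17919 genes were tested with limma 3.58.1 in R 4.3.3 (lmFit, eBayes, two-sided, Benjamini-Hochberg), with code tested on simulated data. The number of arrays limits the precision, and the median SE was 0.066. Exact permutation tests ran over 252 assignments.

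The members and lists were chosen with earlier results of these data known. The rule named all members, and from each other list up to 4 genes called with or without the block, or else the 2 with the smallest p. The labels call the lungs biological replicates without naming litters. Deviations of same-numbered lungs from their group means correlated at 0.154 to 0.485, against a median of -0.0829 for other pairs, whose highest value, 0.33, exceeds 3 of the 5 same-numbered ones. Deviations sum to 0 within each group, so positive same-numbered values by themselves push the other pairs below 0. Every same-numbered value was over 0.1, and the numbers were taken as pairs on that basis. The pairing comes from these same data and has no other source. Alternatives were a replicate block, filters, a floor at 6.30, renormalization, other probe set rules, other variance models and left-out lungs. Promoter windows are RefSeq's, and protein sequences were not used here.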

Additional observations from a re-analysis of the deposited data

Results flagged for a closer look

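In 11 of the 138 groups of 5 lungs checked, for the members and the other genes named by the rule, a single lung stood apart from its group. Its gap to the next lung exceeded 0.71 of the group's range, which chance gives in about 1 of 20 groups. In the controls, Itgam was low in control 5 (7.14, next 7.26), S100a8 was low in control 5 (7.64, next 7.99), Cd163 was high in control 1 (6.19, next 5.83) and Camp was high in control 1 (6.11, next 6.0). In the knockouts, Cd14 was low in knockout 5 (5.86, next 6.29), Adgre1 was low in knockout 5 (7.16, next 7.41), Marco in knockout 1 (5.92, next 6.22) and H2-Aa in knockout 2 (5.94, next 6.41), and Cd79a was high in knockout 4 (6.32, next 6.16). Outside the members, Siglec1 was high in control 5 (7.24, next 6.95) and H2-DMa low in knockout 3 (6.73, next 7.03). Cybb and Ctss are not among them.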

How the results depend on the processing

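Cybb and Ctss were the members called lower under the filters, the floor, renormalization, the other probe set rules, a mean trend and array weights, and no member was called higher there. Leaving out 1 lung gave 2 to 3 members lower, 0 to 1 higher and 393 to 699 genes called. The replicate block gave 3 members lower, 1 higher and 846 genes, against 559 without it, and changed no other call of a member. The sets of numbers 1 to 3 and 4 to 5 as a block gave 4 lower (Laptm5 and Tyrobp added, the latter with adjusted p = 0.0291), 0 higher (Ltf at adjusted p = 0.0736) and 910 genes. With numbers 1 to 3 alone 1 member was called lower, Cybb. With 4 and 5 alone 0 members and 2 genes were called, where Cybb stood at -0.47 and Ctss at -0.29. In the 7 lungs with Y-linked RNA and no Xist, chosen after seeing the data, 1 member (Cybb) and 319 genes were called. These subsets hold fewer lungs, and in each of them Hdac3, Ncf1, Siglec1 and Itgb2 were not called (adjusted p from 0.0598 to 0.642). Over 24 alternatives Cybb lay from -0.54 to -0.45 (adjusted p from 0.000422 to 0.271), Ctss from -0.30 to -0.26 (0.00413 to 0.456) and Ltf from 0.70 to 1.26 (0.0361 to 0.361). Signal near background limits Cd14, Cd163, Marco, Mpo, Camp and the lymphocyte genes.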
